A study of Mus musculus with 10 samples.

Results

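The activin and transforming growth factor beta (TGF-beta) genes comprised Inhba, Inhbb, Fst, Tgfb1, Tgfb2, Tgfb3, Tgfbr1, Tgfbr2 and Tgfbi, 9 of the 18193 genes with a named probe set on the array. They were read by 23 of the 45037 probe sets tested, each of which carries this gene symbol and no other in the platform annotation. The genes were taken as a family because Inhba had lower values on every array of baricitinib treated mice, so the values of Inhba are given as a description and not as a test. Baricitinib inhibits the kinases JAK1 and JAK2. Skin was taken at week 12 from 5 C3H/HeJ mice given systemic baricitinib from the time of grafting and from 5 C3H/HeJ mice given vehicle control over the same period, with 1 array per mouse. All 10 mice, healthy at 8 to 10 weeks of age, had received a skin graft from an affected C3H/HeJ donor whose alopecia had arisen on its own, a procedure that transfers alopecia areata (AA), and all carried an osmotic pump that released drug or placebo. The labels do not say whether graft or host skin was sampled.

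Activin A is a dimer of the chains encoded by Inhba, and activin B of those encoded by Inhbb. Follistatin, the product of Fst, binds activins and keeps them from their receptors. The TGF-beta ligands are secreted in a latent form, bind the type II receptor encoded by Tgfbr2, which then activates the type I receptor encoded by Tgfbr1, and both ligand families signal through SMAD2 and SMAD3. In mouse skin activin is known for its induction after wounding, and TGF-beta ligands for their part in matrix deposition and in the regression phase of the hair cycle.

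Each probe set has a log2 expression value per array, on which a difference of 1 is a doubling. Quality differed between arrays in ways that bear on the genes below. Vehicle replicate 5 correlated with the other arrays with a median r of 0.705, against 0.959 to 0.981 for the medians of the other 9. Control probe sets at the 3' end of the Gapdh and actin messages read higher than those at the 5' end, a 3'/5' gap that grows as RNA breaks down. The gap was 0.99 to 1.18 log2 in baricitinib treated mice and 1.01 to 4.35 in vehicle control mice, where vehicle replicate 4 alone had a narrow gap. The study removed 1 vehicle array after quality control without naming it in the labels, so all arrays were used and values without vehicle replicate 5 are given where they differ. Across all probe sets, 0 of 45037 (0%) passed an adjusted p of 0.05 in limma, with all arrays as without vehicle replicate 5, while 6680 (14.8%) and 12559 (27.9%) had an unadjusted p under 0.05. Without vehicle replicate 4 or baricitinib replicate 5, 848 and 12 probe sets passed. No difference below passed the threshold with all arrays, and genes are described by their values on each array.

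Inhba and Tgfb2 were the genes of the family with a probe set on which the arrays of both groups did not overlap, in opposite directions, and the sequences around their annotated start sites are shown for this reason. RefSeq (GRCm38.p6) gave a promoter window, from 250 bases before to 50 bases after a start site, for 7 of the 9 genes. The window of Inhba is at chr13:16011601-16011900 on the plus strand and that of Tgfb2 at chr1:186705940-186706239 on the minus strand. Both start sites lie inside the span that RefSeq gives the gene, which reaches farther upstream in each case. Capitals mark matches to the motifs searched.
Inhba: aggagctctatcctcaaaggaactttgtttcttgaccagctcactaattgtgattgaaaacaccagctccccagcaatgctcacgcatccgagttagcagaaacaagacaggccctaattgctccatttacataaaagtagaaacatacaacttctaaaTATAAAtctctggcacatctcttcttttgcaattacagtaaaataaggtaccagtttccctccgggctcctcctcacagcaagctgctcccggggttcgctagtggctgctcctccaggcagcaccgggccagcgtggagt
Tgfb2: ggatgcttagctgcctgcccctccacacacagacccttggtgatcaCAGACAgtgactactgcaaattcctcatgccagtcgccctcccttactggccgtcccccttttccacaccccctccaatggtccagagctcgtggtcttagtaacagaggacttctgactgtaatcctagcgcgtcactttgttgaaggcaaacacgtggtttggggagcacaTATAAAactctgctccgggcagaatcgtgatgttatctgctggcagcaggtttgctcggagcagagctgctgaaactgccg

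The motifs searched, on both strands, were the TATA box (TATAAA), the cyclic AMP response element (TGACGTCA), the AP-1 site (TGANTCA), the GAS element bound by STAT factors (TTCNNNGAA) and a SMAD-binding sequence (CAGACA). Matches to the TATA box began 91 bases before the start site of Inhba and 31 bases before that of Tgfb2, and 13.6% of all 32851 promoter windows hold such a match. Tgfb2 also had a SMAD-binding match that began 204 bases before the start site, a sequence found in 21% of windows. Of the 8 windows of the family's 7 genes (Tgfbr1 has more than 1), 2 held a TATA box, 2 a SMAD-binding sequence and 0 an AP-1 site, a GAS element or a cyclic AMP response element, against 7.81%, 8.3% and 1.79% of all windows for the last 3. These are matches of letters, not binding sites.

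Among the activin genes, Inhba was lower on every baricitinib array. The brighter Inhba probe set (1422053_at) was at 5.27, 5.30, 4.76, 4.85 and 5.87 log2 in baricitinib replicates 1 to 5. It was at 6.37, 7.13, 7.68, 7.50 and 6.01 in vehicle replicates 1 to 5. The highest baricitinib array, replicate 5, thus lay just under the lowest vehicle array, which was replicate 5. Group means ± SD (n = 5) were 5.21 ± 0.44 log2 in baricitinib treated and 6.94 ± 0.72 log2 in vehicle control skin, which gave a difference of -1.73 ± 0.36 (SE) or 3.31-fold lower in linear terms. Without vehicle replicate 5 the difference was -1.96.

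The second Inhba probe set (1458291_at) was dim, at the 13.8th percentile of brightness over all probe sets. It gave 3.19, 3.24, 3.27, 3.37 and 3.21 log2 in baricitinib replicates 1 to 5 against 3.74, 3.43, 3.67, 3.52 and 3.92 log2 in vehicle replicates 1 to 5. Its groups did not overlap either, but the difference was -0.40 ± 0.14 (SE), smaller than that of the brighter probe set. Over all probe sets the groups did not overlap, with baricitinib lower, at 913 (2.03%). Because Inhba was chosen by this property, nothing is read from that share.

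The 3'/5' gap also differed between the groups, and Inhba was read beside it. Vehicle replicate 4, whose 3'/5' gap of 1.01 lay within the baricitinib range, had an Inhba value of 7.50 log2, the second highest of all. Vehicle replicate 3, with the widest gap, was the highest. With the gap as a covariate the difference was -2.02, an adjustment that rested almost wholly on the vehicle arrays.

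**Figure D1:**
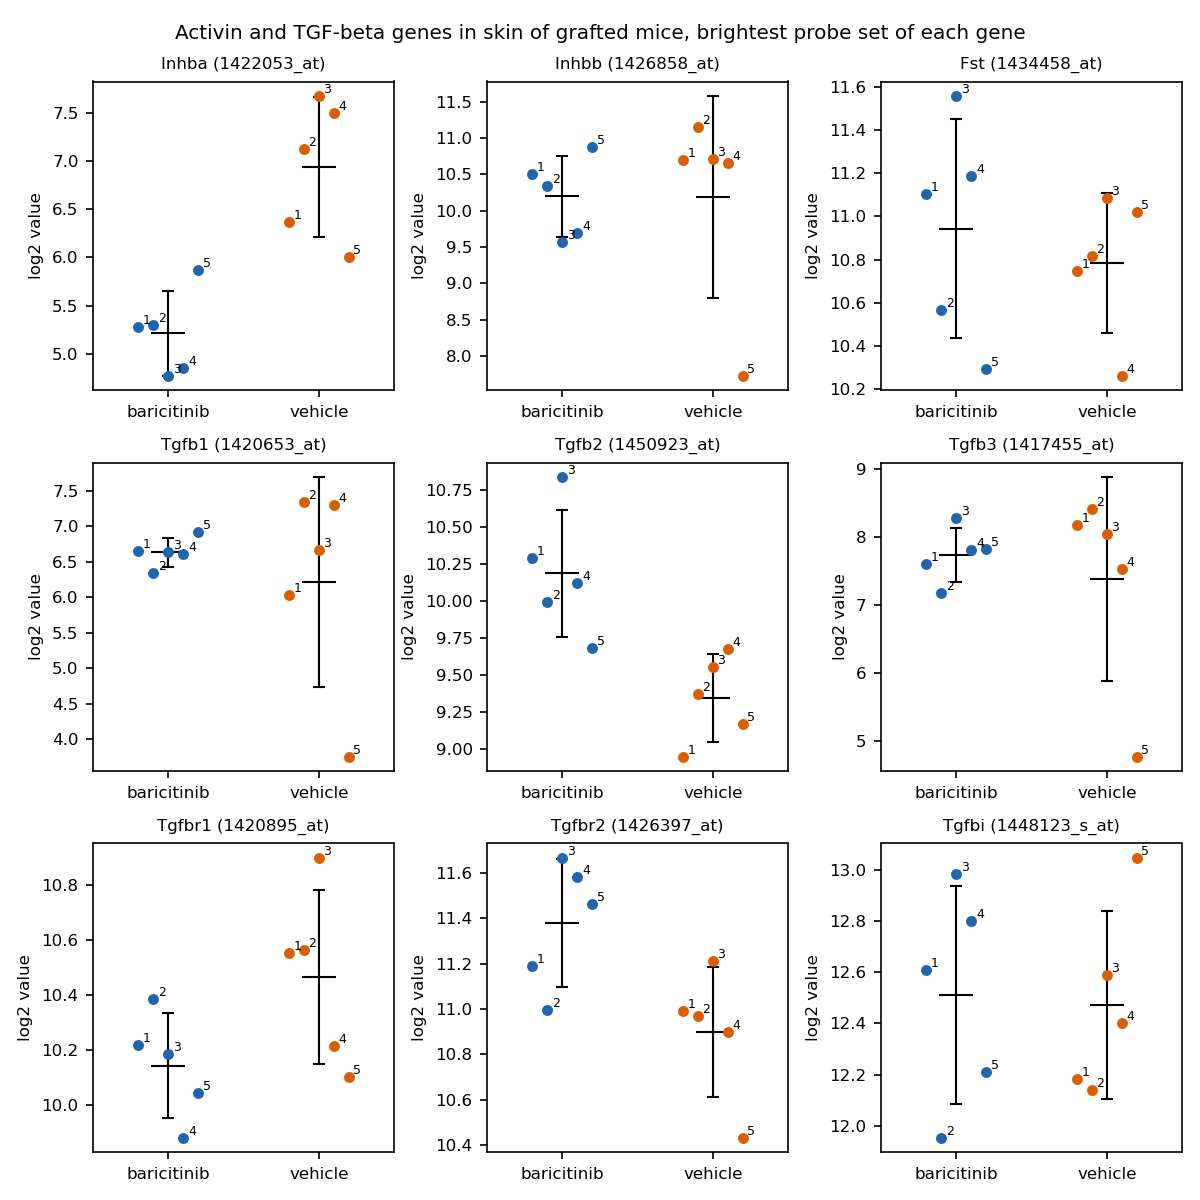
Log2 value of the brightest probe set of each of the 9 genes on each array, with baricitinib treated mice in blue and vehicle control mice in orange. Points carry the replicate number, and black bars show mean ± SD (n = 5). Inhba lay between 4.76 and 5.87 in baricitinib treated mice and between 6.01 and 7.68 in vehicle control mice, and Tgfb2 showed the opposite order.

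Inhbb did not show the pattern of Inhba. Its brighter probe set (1426858_at) was at 10.50, 10.34, 9.56, 9.69 and 10.88 log2 in baricitinib replicates 1 to 5. In vehicle replicates 1 to 5 it was at 10.70, 11.16, 10.71, 10.66 and 7.72. Vehicle replicate 5 stood far below all other arrays and set the difference, which was 0.01 ± 0.61 (SE) with all arrays and -0.61 without it. In the 4 other vehicle arrays Inhbb lay above 4 of the 5 baricitinib arrays, baricitinib replicate 5 being the exception. The dimmer probe set (1426859_at) gave -0.38 ± 0.25 (SE) with overlapping groups.

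Fst, the activin antagonist, varied more among baricitinib arrays than among vehicle arrays. The brighter Fst probe set (1434458_at) was at 11.11, 10.56, 11.56, 11.19 and 10.29 log2 in baricitinib replicates 1 to 5 and at 10.75, 10.82, 11.08, 10.26 and 11.02 log2 in vehicle replicates 1 to 5. The means were 10.94 ± 0.51 log2 in baricitinib treated and 10.78 ± 0.33 log2 in vehicle control skin (SD, n = 5), so the difference of 0.16 was smaller than the spread in either group. The dimmer probe set (1421365_at) was at 7.24, 6.63, 7.73, 8.50 and 6.85 log2 in baricitinib replicates 1 to 5 and at 6.44, 6.98, 6.62, 6.93 and 7.05 log2 in vehicle replicates 1 to 5. On both probe sets the same 3 baricitinib arrays, replicates 1, 3 and 4, lay above every vehicle array. Replicates 2 and 5 lay within the vehicle range.

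Of the 3 TGF-beta ligands, Tgfb2 had higher means in baricitinib treated skin on all 4 of its probe sets, with all arrays as well as without vehicle replicate 5. Its brightest probe set (1450923_at) was at 10.29, 9.99, 10.84, 10.12 and 9.68 log2 in baricitinib replicates 1 to 5. It was at 8.94, 9.37, 9.56, 9.68 and 9.17 in vehicle replicates 1 to 5. The groups did not overlap, but baricitinib replicate 5 (9.685) and vehicle replicate 4 (9.677) all but met. The means were 10.19 ± 0.43 and 9.34 ± 0.29 log2 in baricitinib treated and vehicle control skin (SD, n = 5), and their difference was 0.84 ± 0.24 (SE), and 0.80 without vehicle replicate 5.

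The other Tgfb2 probe sets overlapped between groups. The difference was 1.28 ± 0.44 (SE) for 1438303_at, 0.70 ± 0.28 (SE) for 1450922_a_at and 0.22 ± 0.25 (SE) for 1423250_a_at. The first of these was at 8.79, 8.15, 9.33, 8.68 and 8.34 log2 in baricitinib replicates 1 to 5 and at 7.41, 7.61, 7.68, 8.37 and 5.79 log2 in vehicle replicates 1 to 5, and without vehicle replicate 5 its difference was 0.89. Baricitinib replicate 3 was the highest baricitinib array on all 4 probe sets. Among vehicle arrays replicate 4, the one with a narrow 3'/5' gap, was the highest on 3 of the 4 and within the baricitinib range on 1438303_at, on 1450922_a_at (7.80, against 7.24 to 8.25 in baricitinib arrays) and on 1423250_a_at (6.29, against 6.16 to 6.98). With the gap as a covariate the difference was 0.69 for 1450923_at, 0.45 for 1438303_at, 0.38 for 1450922_a_at and 0.39 for 1423250_a_at, so the second of these shrank most.

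**Figure D2:**
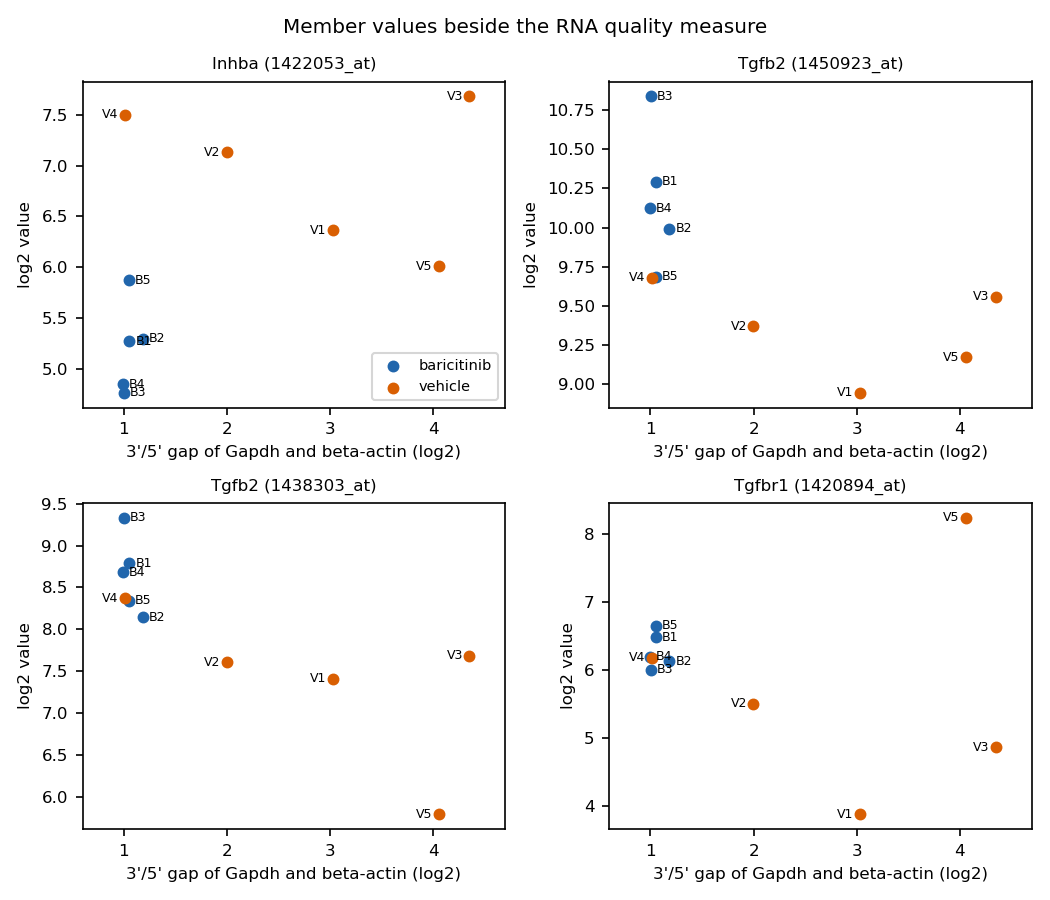
Log2 value of 4 probe sets (vertical axes) against the 3'/5' gap in log2 (horizontal axes), where blue points B1 to B5 are the baricitinib arrays and orange points V1 to V5 the vehicle arrays. At a narrow gap V4 lay far above the baricitinib arrays for Inhba (7.50) but beside or among them for both Tgfb2 probe sets and for the Tgfbr1 probe set.

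Tgfb1 and Tgfb3 turned on vehicle replicate 5. Tgfb1 (1420653_at) was at 6.65, 6.34, 6.65, 6.61 and 6.93 log2 in baricitinib replicates 1 to 5 and at 6.03, 7.34, 6.67, 7.30 and 3.75 log2 in vehicle replicates 1 to 5. The baricitinib arrays lay within the range of the vehicle arrays, and the difference was 0.41 with all arrays and -0.20 without vehicle replicate 5. Tgfb3 (1417455_at, its single probe set) was at 7.61, 7.18, 8.28, 7.82 and 7.82 log2 in baricitinib replicates 1 to 5 and at 8.18, 8.42, 8.05, 7.54 and 4.76 log2 in vehicle replicates 1 to 5. Its difference was 0.35, and -0.30 without vehicle replicate 5, again with overlap. The second Tgfb1 probe set (1445360_at) was dim, between 3.67 and 3.91 log2 in baricitinib arrays and 3.68 and 4.49 log2 in vehicle arrays.

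Of the receptors, Tgfbr2, the type II receptor that binds the ligand, was at 11.19, 10.99, 11.67, 11.58 and 11.46 log2 in baricitinib replicates 1 to 5 on its brightest probe set (1426397_at). In vehicle replicates 1 to 5 it was at 10.99, 10.97, 11.21, 10.90 and 10.43. Baricitinib replicates 3, 4 and 5 lay above every vehicle array, and replicates 1 and 2 among them. The difference was 0.48 ± 0.20 (SE), or 0.36 without vehicle replicate 5. The dimmer probe sets gave 0.35 (1425444_a_at) and -0.68 (1422019_at), against 0.11 and -0.28 without vehicle replicate 5, and the mean over the 3 probe sets differed by 0.05. Probe set 1422019_at, at the 5.73th percentile of brightness, was 2.38 to 2.66 log2 in baricitinib arrays, 2.43 to 3.13 in vehicle replicates 1 to 4 and as high as 4.82 in vehicle replicate 5.

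Tgfbr1, the type I receptor, gave probe sets that differed in sign. The brightest (1420895_at) was at 10.22, 10.39, 10.18, 9.88 and 10.04 log2 in baricitinib replicates 1 to 5 and at 10.55, 10.56, 10.90, 10.21 and 10.10 log2 in vehicle replicates 1 to 5. Vehicle replicates 1 to 3 lay above all baricitinib arrays and vehicle replicates 4 and 5 among them, with a difference of -0.32 ± 0.19 (SE). The second probe set (1420894_at) was at 6.48, 6.13, 6.0, 6.19 and 6.65 log2 in baricitinib replicates 1 to 5 and at 3.88, 5.50, 4.86, 6.18 and 8.24 log2 in vehicle replicates 1 to 5. Here vehicle replicate 4 fell within the baricitinib range, vehicle replicates 1 to 3 with wider 3'/5' gaps below it and vehicle replicate 5 above it, and the difference was 0.56 with all arrays and 1.18 without vehicle replicate 5. With the gap as a covariate the difference was -0.17 for 1420895_at and 0.73 for 1420894_at. The third probe set (1420893_a_at) was dim, at 3.27 to 3.38 log2 in baricitinib arrays and 3.19 to 3.72 log2 in vehicle replicates 1 to 4.

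Tgfbi encodes a secreted matrix protein that TGF-beta induces, and its 4 probe sets were split. The brightest (1448123_s_at) was at 12.61, 11.95, 12.98, 12.80 and 12.21 log2 in baricitinib replicates 1 to 5 and at 12.18, 12.14, 12.59, 12.40 and 13.05 log2 in vehicle replicates 1 to 5, a difference of 0.04 ± 0.25 (SE). The second (1415871_at) was at 12.12, 11.25, 12.58, 12.31 and 11.70 log2 in baricitinib replicates 1 to 5 and at 11.01, 11.13, 11.28, 11.91 and 11.68 log2 in vehicle replicates 1 to 5, a difference of 0.59 ± 0.28 (SE). The remaining pair, whose names end in _x_at because their probes can match several transcripts, went the other way, with differences of -0.70 (1456250_x_at) and -0.60 (1437463_x_at). Vehicle replicate 5 was their highest array, at 12.91 and 12.66 log2, and without it the differences were -0.41 and -0.29. All 4 probe sets ranked baricitinib replicate 3 highest and replicate 2 lowest among baricitinib arrays. No direction can be given for Tgfbi from these probe sets.

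Over the 21 probe sets of the 8 genes other than Inhba, 14 differences were positive and 7 negative, with a median of 0.22, and 11 were positive and 10 negative without vehicle replicate 5, with a median of 0.11. Over all probe sets 44.6% were positive, with a median of -0.07 (45.1% and -0.04 without that array). The groups did not overlap at 1 of the 21, the brightest Tgfb2 probe set, against 5.12% of all probe sets, and at the same 1 without vehicle replicate 5, against 8.53%. At an unadjusted p under 0.05 there were 4 of the 21, against 14.8% of all probe sets, and the limma adjusted p of the 21 was between 0.229 and 0.995. Probe sets of 1 gene are assigned to that gene and read in the same mice, so they are not separate evidence. All probe sets of a gene had differences of 1 sign in 3 of the 8 genes with several, Inhba, Fst and Tgfb2. Without vehicle replicate 5 this also held for Inhbb (-0.61 and -0.35) and Tgfb1 (-0.20 and -0.055).

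**Figure D3:**
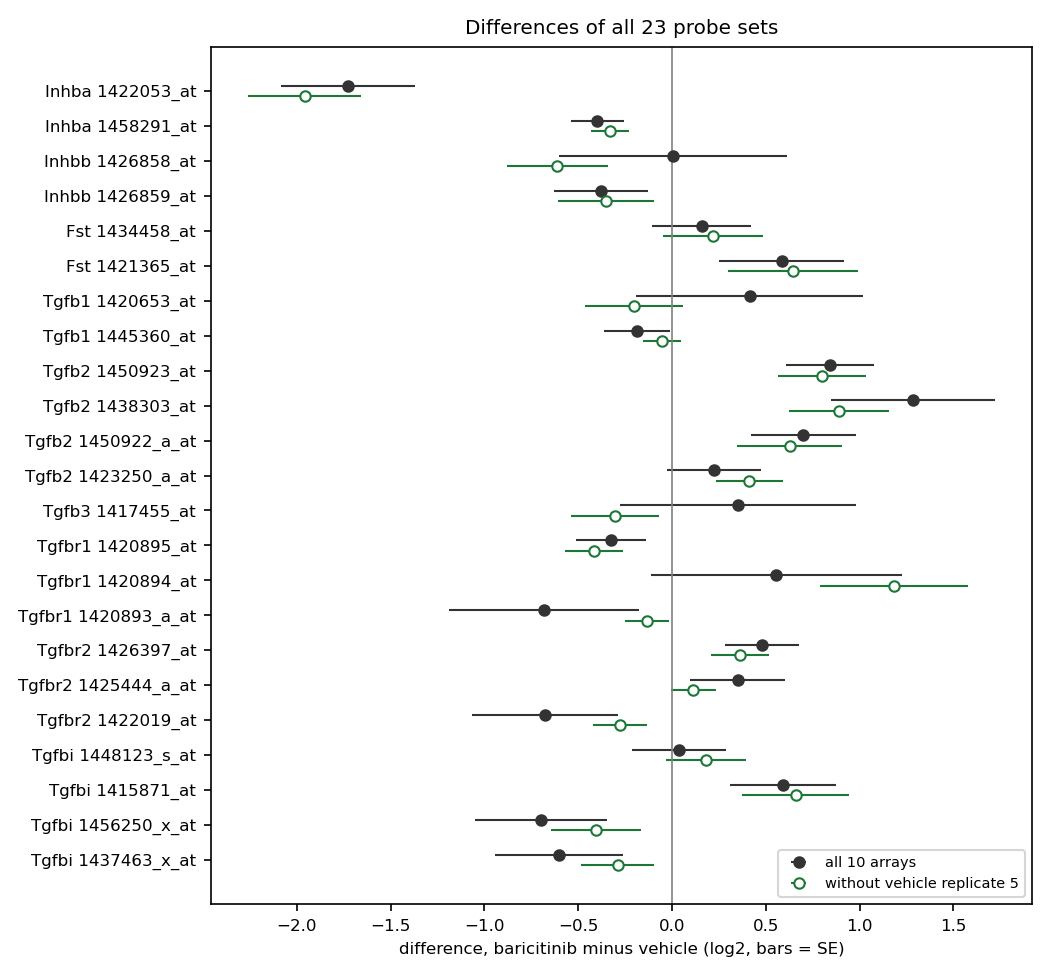
Difference in log2 (baricitinib minus vehicle, horizontal axis) of each of the 23 probe sets, with its SE as a bar. Black symbols are from all 10 arrays and green open symbols leave out vehicle replicate 5. The brighter Inhba probe set lay lowest, at -1.73 and -1.96, and the Tgfb2 probe sets lay between 0.22 and 1.28 with all arrays.

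To place these genes among the rest of the pathway, 54 further genes were listed by role, of which 51 were measured. Of these 51, 30 had a positive and 21 a negative difference, with a median of 0.05 (22 and 29 without vehicle replicate 5, median -0.089), and 0 passed an adjusted p of 0.05 over all probe sets in limma. At an unadjusted p under 0.05, 8 were higher and 3 lower in baricitinib treated skin, against 9.21% and 5.62% of all probe sets. The groups did not overlap at 5 that were higher and 2 that were lower, against 3.09% and 2.03% of all probe sets. Without vehicle replicate 5 these were 5 and 6, against 4.42% and 4.11%, the further 4 that were lower being Inha, Smurf1, Skil and Pmepa1. By role, and with the 9 genes included, 5 of 7 activin and inhibin ligands had a negative difference (median -0.26) and 6 of 8 antagonists a positive one (median 0.36). Without vehicle replicate 5 these were 6 of 7 (median -0.35) and 4 of 8 (median 0.086). The ligand count holds Inhba, which was chosen for its lower values, and 5 of the 7 ligands were below the median brightness. Over all probe sets 55.4% of differences were negative, and 54.9% without vehicle replicate 5. Positive differences were also found in 7 of 10 receptors (median 0.11) and 9 of 11 TGF-beta responsive genes (median 0.24), and without vehicle replicate 5 in 6 (median 0.27) and 8 (median 0.18). Of the genes of TGF-beta latency and activation 6 of 10 were negative (median -0.093), and 7 without vehicle replicate 5 (median -0.16). Of SMADs and their regulators 5 of 11 were negative (median 0.048), and 8 without that array (median -0.28).

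The genes with higher values and groups that did not overlap were Dcn, Ltbp4, Tgfbr3, Fstl3 and Ski. Dcn encodes decorin, a matrix proteoglycan that binds TGF-beta, and was at 12.44, 11.88, 12.81, 12.15 and 11.98 log2 in baricitinib replicates 1 to 5 against 10.86, 11.17, 10.89, 11.63 and 10.65 log2 in vehicle replicates 1 to 5 (difference 1.21 ± 0.24, SE, limma adjusted p = 0.221, and 0.0371 without vehicle replicate 4). Vehicle replicate 4 had the highest vehicle value of Dcn. Without it no vehicle array had a 3'/5' gap within the baricitinib range. Ltbp4, encoding a latent TGF-beta binding protein, was at 8.19 to 9.16 log2 in baricitinib treated and 4.19 to 8.08 log2 in vehicle control skin (difference 2.14, and 1.55 without vehicle replicate 5). Tgfbr3, the coreceptor betaglycan that presents TGF-beta 2, was at 11.45 to 12.32 log2 and 8.71 to 11.31 log2 in baricitinib treated and vehicle control skin (difference 1.18, and 0.68 without vehicle replicate 5). The dermal fibroblast markers, which include Dcn, Col1a1 and Col3a1, also averaged higher, at 11.35 to 12.20 log2 in baricitinib treated and 10.98 to 11.41 log2 in vehicle control arrays, 5 of 6 with a positive difference. This mean holds Dcn itself, and after Dcn its largest difference was that of Lum (1.15), against 0.37 for Col3a1, 0.28 for Col1a2, 0.13 for Col1a1 and -0.18 for Pdgfra. The part of these cells in the values above was not tested. In bulk skin, fewer cells of a type and less RNA per cell cannot be told apart.

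Among antagonists and regulators, Fstl3, a follistatin relative that also binds activin, was at 7.36 to 8.35 log2 in baricitinib treated and 6.86 to 7.31 log2 in vehicle control skin (difference 0.78 ± 0.21, SE, limma adjusted p = 0.227). Ski, a repressor of SMAD-driven transcription, was at 11.27 to 11.41 log2 and 7.31 to 11.17 log2 in baricitinib treated and vehicle control skin (difference 1.27, and 0.59 without vehicle replicate 5). Its values in vehicle replicates 2 and 4 (11.14 and 11.17) lay just under the baricitinib range. In vehicle replicates 1 and 3, with wider 3'/5' gaps, they were 10.38 and 10.35. The further genes whose groups did not overlap and that had lower values were Nodal and Lefty2, a ligand and an antagonist known from the embryo. Nodal was at 5.13 to 5.52 log2 in baricitinib treated and 5.59 to 6.55 log2 in vehicle control skin. Lefty2 was at 4.52 to 4.76 log2 and 4.77 to 8.35 log2 in baricitinib treated and vehicle control skin, the last being vehicle replicate 5. For Lefty2, vehicle replicate 4 (4.768) and the highest baricitinib array (4.756) all but met. The part of RNA quality in the values of Dcn, Ltbp4, Ski and Lefty2 was not tested. Outside the naming rule, and chosen after their values were seen, 2 integrin genes of TGF-beta activation had larger negative differences than Nodal with overlapping groups. So did Smad7 (-0.66), Nrros (-0.61) and Skil (-0.53). Itgb8 was at 8.83 to 9.87 log2 in baricitinib treated and 9.57 to 11.05 log2 in vehicle control skin (difference -1.27 ± 0.34, SE, limma adjusted p = 0.227). Vehicle replicate 4, with the narrow 3'/5' gap, was at 9.76 for Itgb8, within the baricitinib range. Itgb6, at the 33.2th percentile of brightness, was at 3.89 to 5.26 log2 and 4.53 to 5.60 log2 in baricitinib treated and vehicle control skin (difference -0.86 ± 0.30, SE, limma adjusted p = 0.265).

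**Figure D4:**
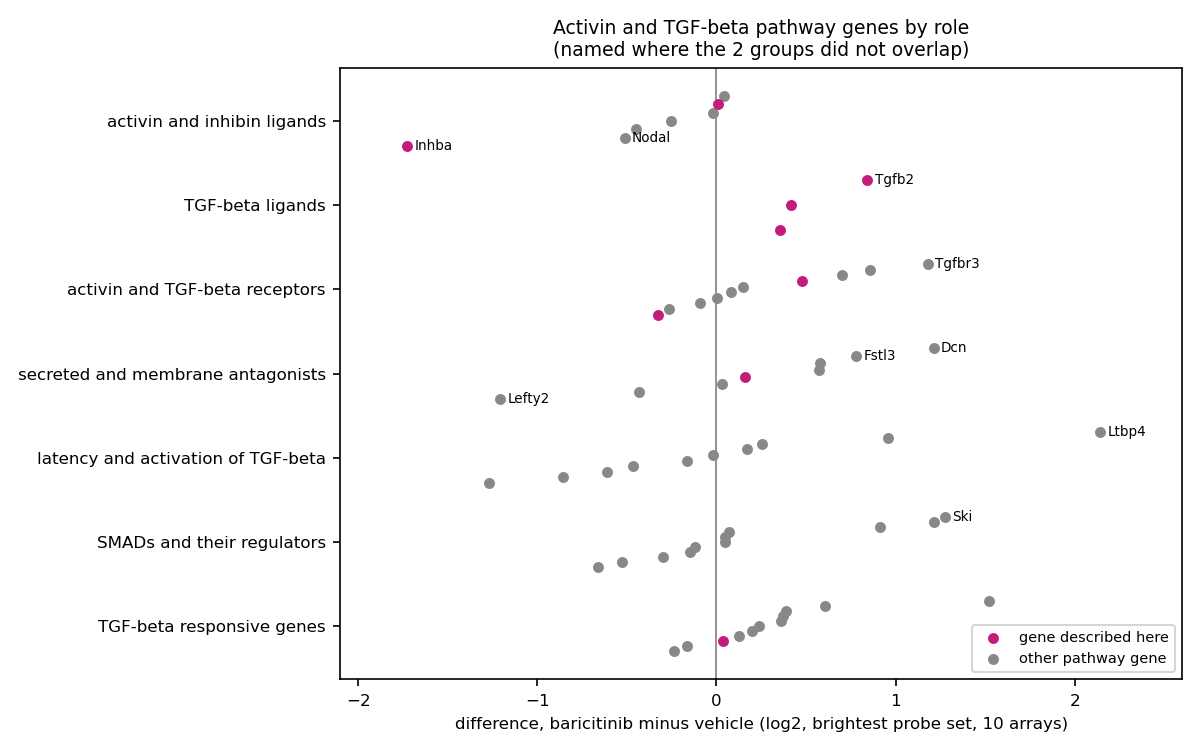
Difference in log2 (baricitinib minus vehicle, 10 arrays, horizontal axis) of the brightest probe set of each measured pathway gene, in rows by role, with the 9 genes described here in magenta and the other pathway genes in grey. Genes are named where the groups did not overlap, from Inhba at -1.73 to Ltbp4 at 2.14.

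Markers of the cells that could carry Inhba were read in the same arrays. The labelled tissue was borne out by the 6 keratinocyte markers, which averaged 11.77 to 12.38 log2 in baricitinib treated and 12.04 to 13.16 log2 in vehicle control arrays. Wound-associated keratins (Krt6a, Krt6b, Krt16 and Krt17) averaged 9.52, 9.50, 9.61, 9.50 and 11.81 log2 in baricitinib replicates 1 to 5 and 12.24, 12.26, 12.36, 12.62 and 7.85 log2 in vehicle replicates 1 to 5. Baricitinib replicate 5, the baricitinib array with the highest Inhba, was also the highest of its group for these keratins, and vehicle replicate 5, the lowest vehicle array for Inhba, was the lowest of all for them. The list mean followed Krt6b above all, with a difference of -5.28, against -0.61 for Krt6a, -0.44 for Krt16 and 0.41 for Krt17 (-6.84, -1.02, -1.61 and -0.06 in the same order without vehicle replicate 5). The 5 measured T cell markers averaged 6.57 to 8.65 log2 in baricitinib and 6.41 to 9.24 log2 in vehicle control arrays, and the 6 macrophage markers 8.57 to 9.09 log2 and 7.74 to 9.20 log2 in the same order. Baricitinib replicate 5 was the highest and vehicle replicate 5 the lowest array of its group for both lists. The same held for the 6 keratinocyte markers (12.38 and 12.04 log2). Vehicle replicate 5 was also the lowest vehicle array for the dermal papilla and hair matrix, mast cell, endothelial and skeletal muscle lists. Its low rank was thus not particular to wound-associated keratins, T cells or macrophages. The part of any of these cells in the Inhba values was not tested.

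Several other marker lists had higher means in baricitinib treated skin, where 0 marker genes passed the threshold. Adipocyte markers (4 measured) averaged 9.78 to 11.40 log2 in baricitinib and 8.14 to 9.55 log2 in vehicle control arrays, with no overlap. Mast cell markers (6 measured) averaged 8.08 to 9.16 log2 and 6.13 to 7.68 log2, also with no overlap. Endothelial markers (5 measured) averaged 7.29 to 8.63 log2 and 6.71 to 7.30 log2, and skeletal muscle markers (5 measured) 10.61 to 12.46 log2 and 10.56 to 11.67 log2, both with overlap. Dermal papilla and hair matrix markers (6 measured) spanned 6.61 to 9.92 log2 in baricitinib and 6.58 to 9.45 log2 in vehicle control arrays. Of them 5 had a positive difference (median 0.39), and 3 without vehicle replicate 5 (median 0.00082). All adipocyte and endothelial markers had a positive difference, with 5 of 6 mast cell and 3 of 5 skeletal muscle markers (5 and 4 without that array). With all arrays Fcer1a (-0.90), Myh1 (-0.11) and Myh4 (-0.35) went the other way.

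**Figure D5:**
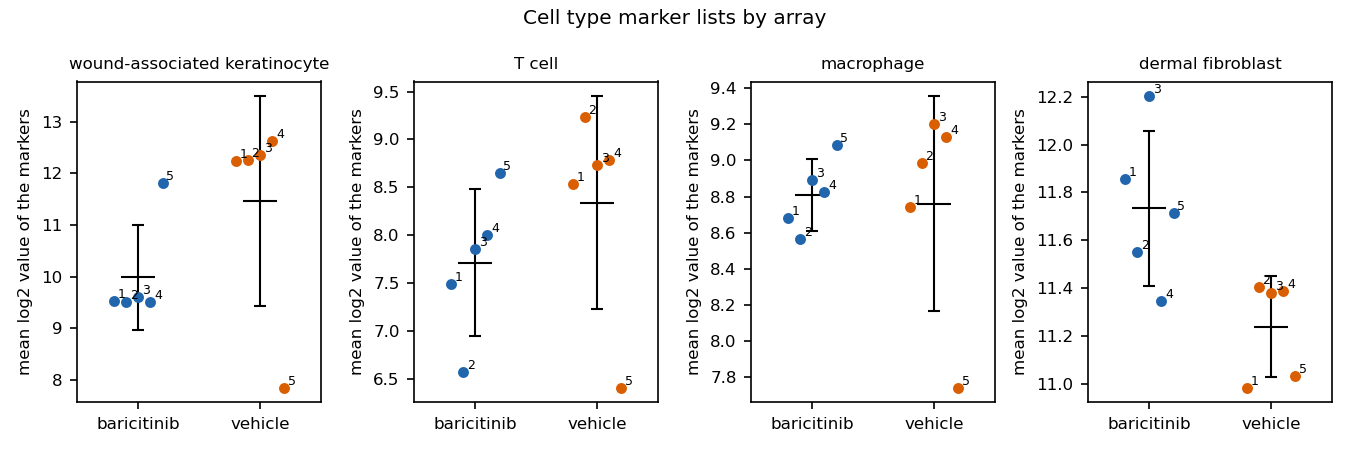
Mean log2 value of the markers of 4 cell types on each array, with baricitinib treated mice in blue and vehicle control mice in orange. Points carry the replicate number, and black bars show mean ± SD (n = 5). Wound-associated keratins were at 9.50 to 9.61 in baricitinib replicates 1 to 4 and at 11.81 in baricitinib replicate 5.

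The genes whose values ran closest to the brighter Inhba probe set were found among 18184 other genes by Pearson r over the 10 arrays. They were Defb3, encoding a beta-defensin (r = 0.955), Gpr84, a receptor gene of myeloid cells (0.949), Car9, a carbonic anhydrase gene induced by hypoxia (0.932), Tmem200a (0.931) and Acod1, which encodes the macrophage enzyme that makes itaconate (0.930). Over the 9 arrays without vehicle replicate 5 they were Pfkfb4, a regulator of glycolysis (r = 0.978), Fcrla (0.967), Ocstamp (0.963), Ptgs2, encoding the prostaglandin synthase COX-2 (0.960), and Defb3 (0.956), so that Defb3 was the gene named both times. Spearman's rho of these genes was 0.903 to 0.964 over 10 arrays and 0.883 to 0.983 over 9. Since Inhba differed between the groups, a gene that also differed between them tends to score highly, and the r values describe these arrays alone. Defb3 was at 4.04 to 6.54 log2 in baricitinib treated and 6.45 to 8.99 log2 in vehicle control skin (difference -2.60). Acod1 was at 2.92 to 7.83 log2 and 7.50 to 9.16 log2 in baricitinib treated and vehicle control skin.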

How the data were processed

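Skin RNA of 10 mice was amplified with NuGen kits and read on Affymetrix mouse genome arrays. The authors deposited log2 values, computed with RMA over the arrays of the experiment. RMA subtracts background, equalises the distributions of probe values between arrays and combines the probes of a probe set. Differences between whole arrays can remain afterwards. The probe set values of vehicle replicate 5 had an SD of 2.28 log2, against 2.71 to 2.79 on the other arrays. No RMA version is given in the sources used here. Group and replicate were taken from the sample titles. The members and the gene lists were chosen with earlier results of these data known.

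Of 45101 probe sets 64 controls were set aside and 45037 tested. In the platform annotation 34945 had 1 gene symbol, 932 several and 9160 none. The comparison used limma 3.58.1 under R 4.3.3, two-sided, with Benjamini-Hochberg adjustment across all probe sets tested, and differences are baricitinib minus vehicle. A pathway or marker gene was read by its brightest probe set over all arrays. Pathway genes were named where the groups did not overlap, and 5 genes by likeness to Inhba. The fit was tested on simulated data. The number of arrays limits the precision. Alternatives were leaving out each array, the replicate number as a block, array weights, quantile, cyclic loess and median normalisation, a filter on dim probe sets, trend and robust settings, the 3'/5' gap as a covariate, and the mean over a gene's probe sets.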

Additional observations from a re-analysis of the deposited data

Results flagged for a closer look

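In 4 of the 46 groups of 5 arrays examined over the 23 probe sets, 1 array lay far from the other 4 relative to the range of its group, and chance flags about 1 in 20 such groups. The array was vehicle replicate 5 each time. It was at 7.72 log2 for Inhbb (1426858_at), against 10.66 to 11.16 in the other vehicle arrays, and at 4.76 log2 for Tgfb3, against 7.54 to 8.42. It was at 6.19 log2 for the dim Tgfbr1 probe set 1420893_a_at, against 3.19 to 3.72, and at 3.88 log2 for Tgfbr2 (1425444_a_at), against 4.90 to 5.25.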

How the results depend on the processing

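The count of probe sets past the threshold was 0 with all arrays, 0 to 848 when 1 array was left out (848 without vehicle replicate 4, 12 without baricitinib replicate 5 and 0 without each other array) and 9676 with array weights. Pathway genes past the threshold, the 9 genes included, numbered 0, then 0 to 1 with 1 array left out (Dcn, higher, without vehicle replicate 4, limma adjusted p = 0.0371) and 24 with array weights. In the calls made without vehicle replicate 4, treatment and RNA quality cannot be told apart, since the groups then no longer overlapped in 3'/5' gap. The weights also called 8 of the 23 probe sets, 2 of Inhba, 3 of Tgfb2, 2 of Tgfbr1 and 1 of Tgfbi, against 21.5% of all, and gave vehicle replicate 5 a weight of 0.0289. Vehicle replicate 4, with the narrow 3'/5' gap, had the next lowest weight, 0.497. Baricitinib replicate 1 had the highest, 5.43, and the remaining arrays 1.09 to 2.05. Calls made with the weights thus lean on baricitinib replicate 1 and little on vehicle replicates 4 and 5. The Inhba difference was -1.96 to -1.54 with 1 array left out and -1.06 as the mean of both its probe sets. Of the 23 differences 9 were negative, and 9 to 12 with 1 array left out. The replicate number as a block left the count of calls at 0. The Inhba difference stayed at -1.73, as it must with 1 array of each group per number. Deviations of arrays that share a number correlated at -0.23 to 0.09, so the numbers were not taken as pairs.

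Sign changed for Inhbb 1426858_at with array weights (-0.57), quantile (-0.17), cyclic loess (-0.24) and median (-0.065) normalisation, the gap as a covariate (-0.86) and the mean over probe sets (-0.19), for Fst 1434458_at with cyclic loess (-0.050), for Tgfb1 1420653_at with weights (-0.20) and the gap (-0.83), for Tgfb1 1445360_at with quantile (0.032) and cyclic loess (0.057), for Tgfb3 with weights (-0.46) and the gap (-0.42), for Tgfbi 1448123_s_at with quantile (-0.0097), cyclic loess (-0.065) and median (-0.033) normalisation and the mean over probe sets (-0.17), and with the gap for Tgfbr1 1420893_a_at (0.17), Tgfbr2 1425444_a_at (-0.040) and 1422019_at (0.11) and Tgfbi 1456250_x_at (0.065) and 1437463_x_at (0.090). The cause was not tested. With 1 array left out, sign changed for 4 probe sets, Inhbb 1426858_at (-0.61 to 0.25), Tgfb1 1420653_at (-0.20 to 0.69), Tgfb3 (-0.30 to 0.61) and Tgfbi 1448123_s_at (-0.080 to 0.18). Both Inhba and all 4 Tgfb2 probe sets kept their sign under every alternative run on them, though not their size. So did Inhbb 1426859_at, Fst 1421365_at, Tgfbr1 1420895_at and 1420894_at, Tgfbr2 1426397_at and Tgfbi 1415871_at. At the Inhba probe sets and Tgfb2 1450923_at the groups did not overlap, so leaving out an array could not change the sign. The replicate block, the trend and robust settings and the filter on dim probe sets leave every difference unchanged, so they could not change a sign either. Nor could the mean over probe sets where those of a gene share 1 sign. Nothing is read from the sign in any of those runs. The dim Inhba probe set gave -0.17 with quantile and -0.12 with cyclic loess normalisation and -0.21 with the gap, Tgfb2 1438303_at gave 0.45 with the gap, and Tgfb2 1423250_a_at gave 0.021 with quantile normalisation. The mean over the Tgfbr2 probe sets was 0.050.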
